A study of Mus musculus with 6 samples.

Results

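The genes described here encode nuclear-made subunits of the mitochondrial respiratory chain and of ATP synthase. They were chosen by name: every non-control probe whose printed gene name began with Ndufa, Ndufb, Ndufc, Ndufs or Ndufv and a number, was Sdha to Sdhd, or began with Uqcr, with Cox and a number from 4 to 8 followed by a, b or c, or with Atp5a to Atp5l. This gave 105 of 41174 probes and 76 of 27574 named genes: 36 of complex I, 4 of complex II, 7 of complex III, 15 of complex IV and 14 of complex V. Cox4i1, Cyc1, Ndufab1 and Atp5o are subunits too but have names outside the rule, and are described with the related lists. Ndufa12l is today called Ndufaf2 and is an assembly factor of complex I, Ndufa4 is now placed in complex IV, Cox7a2l helps to join complexes into larger assemblies, Atp5f1 is Atp5pb and Uqcr is Uqcr11. They are kept here under the names printed on the array.

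The samples were 6 tumors of Hepa1-6, a mouse hepatoma cell line, grown from cells injected subcutaneously into C57Bl/6 females. Tumors 302, 307 and 312 were taken at day 10 and tumors 303, 313 and 318 at day 15, with no further treatment named in either group. The age of the mice is not given in the sources used here. Every tumor was hybridised in Cy5 against 1 reference, labelled as total blood RNA of an untreated C57Bl/6 mouse, in Cy3. A value below is the log2 ratio of tumor over reference unless stated otherwise. The tumors still hold host cells, so a ratio covers hepatoma and host RNA together. In such bulk RNA, fewer cells of a type and less RNA per cell cannot be told apart. The dyes were not swapped, so a probe's dye bias stays in its ratio.

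Several facts of the series touch all the values that follow. By array, 51.4% to 57.3% of the spots passed the scanner's background mark in Cy5, and 46.4% to 51.7% in Cy3. On the array of tumor 312, an area with 14.6% of the spots had lost signal. It covered 13 of the 105 subunit probes, 8 of which represent their gene: those of Ndufs5, Ndufa12l, Ndufb4, Uqcrq, Cox5a, Cox6a1, Cox6a2 and Cox6b1. Tumor 313 stood apart in the liver genes, with a median ratio of -2.14 over the 9 liver and hepatoma markers on the array, against 2.23 to 3.25 in the other 5 tumors. The reference, labelled as blood, had less erythroid signal than the tumors: Hbb-bt, a beta globin, had ratios of 5.45 to 6.24 and Hba-a1, an alpha globin, 3.56 to 3.94, so that every tumor was brighter than the reference. On each of the 6 arrays Cy3 was above background for both, and for Alas2 of heme synthesis. Slc4a1, the anion exchanger of red cells, was well above background in Cy3 on 0 of 6 arrays. It is therefore called the reference here. All day 10 arrays shared 1 slide and all day 15 arrays another, so slide and day cannot be told apart.

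Complexes I to IV of the inner mitochondrial membrane pass electrons from NADH and succinate to oxygen, and complexes I, III and IV pump protons as they do so. Complex V, the ATP synthase, lets the protons return and makes ATP. Most subunits are present in all cells at fixed proportions, and a few of complex IV come in alternative forms: Cox6a2, Cox7a1 and Cox8b are the forms of heart and skeletal muscle, Cox7a1 and Cox8b being known from brown fat too, while Cox6a1, Cox7a2 and Cox8a are found generally, liver included.

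The subunit genes were widely detected. In Cy5, 92 of the 105 probes (87.6%) were well above background on all 6 arrays, against 44.1% of all probes. In Cy3 it was 95 probes (90.5%), against 42.9% of all probes. No subunit probe was saturated. Of the 76 genes, 75 were tested. Cox8c, a form of subunit 8 known from testis, was well above background in Cy5 on 1 array only and was left out.

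Against the reference, most subunit genes lay close to a ratio of 0. Of the 75 tested, 2 were at least 2-fold higher in the tumors (log2 of at least 1, limma adjusted p under 0.05), where 25.5% of all 16325 genes tested were. Another 5 were at least 2-fold lower, where 9.76% of all genes were. In 68 of 75 the ratio was between -1 and 1 (90.7%), against 64.7% of all genes. With no minimum size, 25 subunit genes were higher, 31 lower and 19 passed in neither direction (48.6% and 32.0% of all genes). The median ratio was -0.07, against 0.22 over all genes tested. The SD over the 6 tumors had a median of 0.169 for the subunit genes and 0.263 for all genes.

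How close to 0 they lay depended on the scaling of the arrays. With each array centred on its median in place of loess, the median of the subunit genes fell to -1.04 while that of all genes fell to -0.34. The subunit genes then counted 2 higher and 38 lower, with 71 of 75 ratios below 0. Of all 16325 genes, 3239 were then higher and 4594 lower, with 9805 ratios below 0. The 4 that stayed above 0 were Cox6a2, Cox8b, Cox7a1 and Cox6b2, so every other gene given below as above the reference fell below 0 under median centring. With the scanner's own processed signals the medians were -0.20 and -0.02, with 2 higher and 6 lower. Of all 16325 genes, 4443 were higher and 3235 lower with these signals. The subunit median was below the median of all genes under each of these scalings.

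**Figure D1:**
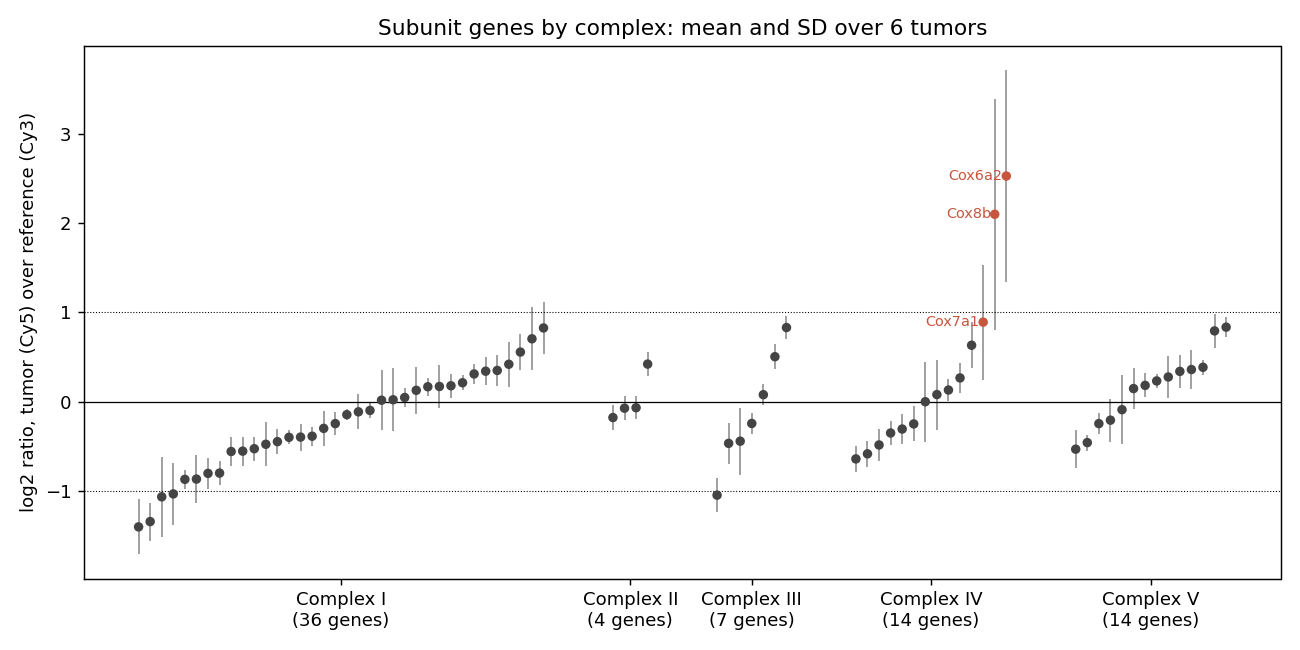
Mean log2 ratio of tumor over reference (vertical axis) of the 75 tested subunit genes, ordered within complexes I to V along the horizontal axis; bars are the SD over 6 tumors (5 for Ndufv1 and Cox6c), dotted lines mark 1 and -1. Most genes lie between the dotted lines, and Cox6a2 and Cox8b (coloured, with Cox7a1) lie above them with the widest bars.

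Complex I, which takes electrons from NADH, had a median ratio of -0.19 over 36 genes, with 9 higher, 18 lower and 9 in neither direction at any size. By printed name it held 4 of the 5 genes that were at least 2-fold lower. These include Ndufa12l, an assembly factor, and Ndufa4, now placed in complex IV. Ndufa11, a membrane subunit, had ratios of -1.17, -1.54 and -1.29 in the day 10 tumors 302, 307 and 312 and of -1.61, -1.81 and -0.98 in the day 15 tumors 303, 313 and 318. All 6 tumors were below the reference and the days overlapped (mean -1.40 ± 0.31, SD, n = 6, limma adjusted p = 7.9e-05). Its other probe gave -1.44. Ndufa12l followed with -1.34 ± 0.21 (SD, n = 6) and -1.34 with the lost area of tumor 312 left out. Ndufa4 had a mean of -1.06 ± 0.45 (SD, n = 6) and ranged from -1.77 in tumor 313 to -0.62 in tumor 318. Ndufs8, an iron-sulfur subunit of the matrix arm, had a mean of -1.03 ± 0.34 (SD, n = 6), with -1.51 in tumor 313 and -0.52 in tumor 318. Without tumor 313 Ndufa4, Ndufs8 and Uqcrfs1 came to -0.88, -0.90 and -0.97, and 2 subunit genes in place of 5 stayed past the 2-fold minimum; without tumor 307 it was 3.

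At the other end of complex I, Ndufb10 and Ndufa1, accessory subunits of the membrane arm, had mean ratios of 0.83 ± 0.29 and 0.71 ± 0.35 (SD, n = 6). In both, tumor 313 was the highest, with 1.36. Of the core subunits, Ndufs1, which carries iron-sulfur clusters in the matrix arm, had a mean of -0.52 ± 0.13 (SD, n = 6) and ratios from -0.66 to -0.31. Ndufv1, which binds NADH, had ratios from 0.00 to 0.26 in 5 tumors, the spot of tumor 313 being marked as an outlier by the scanner. The 10 Ndufs and Ndufv genes had a median of -0.19, the 14 Ndufa genes -0.12 and the 12 Ndufb and Ndufc genes -0.27.

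Complex II, succinate dehydrogenase, lay near 0. Sdha, the flavin subunit, had a mean of -0.07 ± 0.13 and Sdhb, the iron-sulfur subunit, -0.18 ± 0.14 (SD, n = 6). Sdhd was at -0.07. Sdhc, a membrane anchor, was the only one of the 4 past the test, with 0.27, 0.51 and 0.54 at day 10 and 0.30, 0.56 and 0.35 at day 15 (mean 0.42 ± 0.13, SD, n = 6, limma adjusted p = 0.0020). It was above 0 in all 6 tumors with loess, and its mean was -0.49 under median centring.

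Complex III, cytochrome bc1, ran from -1.04 to 0.83 over 7 genes, with a median of -0.24. Uqcrfs1, the Rieske iron-sulfur protein, had the ratios -0.96, -1.17 and -0.93 at day 10 and -0.96, -1.38 and -0.87 at day 15 (mean -1.04 ± 0.19, SD, n = 6, limma adjusted p = 7.9e-05). Uqcrh, the hinge protein, lay on the other side of 0 in all 6 tumors, from 0.61 in tumor 318 to 0.996 in tumor 313 (mean 0.83 ± 0.13, SD, n = 6). Under median centring Uqcrh was at -0.15, while Uqcrfs1 stayed lower at -2.01. The core proteins differed in sign, Uqcrc1 at 0.51 ± 0.14 and Uqcrc2 at -0.46 ± 0.23 (SD, n = 6).

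Complex IV, cytochrome c oxidase, had a median of 0.04 over 14 tested genes, and of -0.25 over 11 without the muscle or heart forms. Among the Cox genes Cox6c had the lowest mean, -0.64 ± 0.15 (SD, n = 5), with tumor 312 left out for an outlier mark. Ndufa4, counted with complex I by its printed name, was lower at -1.06. Cox5b was at -0.35 ± 0.14 and Cox7b at -0.48 ± 0.18 (SD, n = 6). Cox5a was at 0.08 ± 0.39 (SD, n = 6), with -0.67 in the lost area of tumor 312 and 0.08 to 0.45 in the other tumors. Cox6b2, the form of subunit 6b known from testis, had the ratios 0.62, 0.50 and 0.35 at day 10 and 0.72, 1.10 and 0.52 at day 15. All 6 were above 0 (mean 0.63 ± 0.26, SD, n = 6, limma adjusted p = 8.6e-04), while its general counterpart Cox6b1 had a mean of -0.30 ± 0.17 (SD, n = 6). With the lost area of tumor 312 left out, the Cox6b1 mean was -0.34.

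Complex V had the highest median of the complexes, 0.21 over 14 genes, with 8 higher, 3 lower and 3 in neither direction at any size. Under median centring its median was -0.77 and that of complex IV, the next, -0.84, so complex V came first there too. Its F1 part, central stalk included (5 genes), had a median of 0.34 and the other 9 genes 0.15. The 0.34 is the value of the Atp5b probe read here. The other Atp5b probes gave -0.35 and -0.43, and the other Atp5a1 probe 0.43. Atp5l, a subunit of the membrane part, had the ratios 0.84, 0.77 and 0.75 at day 10 and 0.79, 1.05 and 0.80 at day 15 (mean 0.84 ± 0.11, SD, n = 6, limma adjusted p = 6.5e-05). Atp5e, of the central stalk, had a mean of 0.79 ± 0.19 (SD, n = 6). Both came out just below 0 under median centring, at -0.14 and -0.19. Atp5b, the catalytic beta subunit, was at 0.34 ± 0.18, Atp5c1, the gamma subunit, at 0.23 ± 0.08, and Atp5a1, the alpha subunit, at -0.09 ± 0.39 (SD, n = 6), with -0.76 in tumor 313. The lowest was Atp5j2, with -0.53 ± 0.21 (SD, n = 6). The paralogs for subunit c, which encode the same mature protein, had means of -0.24 (Atp5g1), 0.15 (Atp5g2) and -0.21 (Atp5g3).

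Genes with more than 1 probe show how far a ratio depends on the probe. Of 21 such genes, 7 had probes whose mean ratios lay more than 0.5 apart, and in 6 the probes differed in sign (Ndufb2, Ndufa3, Atp5b, Atp5j2, Atp5a1 and Sdha). The probes of Ndufb2 gave -0.80 and 0.37, and those of Ndufa3 gave -0.70 and 0.35. The median gap over the 21 genes was 0.264, wider than the median SD over tumors.

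The muscle or heart forms of complex IV stood apart from the other subunits. Their promoters are shown with those of their general counterparts because the pairs differed so much in ratio. Each is the stretch of 250 bases before the gene's start from RefSeq (build GRCm38.p6), written 5′ to 3′ on the gene's strand, with capitals for the motifs searched, and Cox6a2 is not shown. The motifs were CCGGAAG, the core of sites for ETS factors such as GABP, the palindromic site of NRF1, and CAGCTG, an E-box of the kind that myogenic factors bind, each on both strands.
Cox8b, chr7:140900447-140900696, minus strand: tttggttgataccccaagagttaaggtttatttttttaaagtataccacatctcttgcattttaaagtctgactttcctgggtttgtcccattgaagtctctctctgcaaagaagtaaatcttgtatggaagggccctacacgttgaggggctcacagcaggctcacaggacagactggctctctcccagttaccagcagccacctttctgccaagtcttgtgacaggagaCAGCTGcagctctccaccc
Cox8a, chr19:7217617-7217866, minus strand: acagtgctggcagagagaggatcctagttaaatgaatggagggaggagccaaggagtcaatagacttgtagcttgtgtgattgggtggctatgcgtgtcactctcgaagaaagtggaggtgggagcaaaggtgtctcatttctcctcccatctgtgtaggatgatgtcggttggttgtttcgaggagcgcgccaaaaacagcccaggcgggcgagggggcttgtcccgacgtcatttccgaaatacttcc
Cox7a1, chr7:30183921-30184170, plus strand: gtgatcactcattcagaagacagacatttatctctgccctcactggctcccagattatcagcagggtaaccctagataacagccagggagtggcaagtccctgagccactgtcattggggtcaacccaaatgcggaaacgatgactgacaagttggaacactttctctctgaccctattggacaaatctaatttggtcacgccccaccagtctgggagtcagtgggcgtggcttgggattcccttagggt
Cox7a2, chr9:79759854-79760103, minus strand: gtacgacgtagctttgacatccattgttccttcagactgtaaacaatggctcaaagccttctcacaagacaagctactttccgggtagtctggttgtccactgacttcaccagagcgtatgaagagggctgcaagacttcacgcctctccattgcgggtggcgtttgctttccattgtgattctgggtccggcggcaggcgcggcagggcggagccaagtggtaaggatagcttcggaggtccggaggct
Cox6a1, chr5:115348959-115349208, minus strand: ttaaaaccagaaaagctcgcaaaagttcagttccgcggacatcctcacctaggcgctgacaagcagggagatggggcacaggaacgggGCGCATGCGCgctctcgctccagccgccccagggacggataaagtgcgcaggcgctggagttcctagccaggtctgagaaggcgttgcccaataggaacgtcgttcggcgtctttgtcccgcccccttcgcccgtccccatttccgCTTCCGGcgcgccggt
The Cox8b promoter held 1 E-box, 19 bases before the start. The Cox6a1 promoter held 1 ETS core and 1 NRF1 site, and the other 3 held none of these letters. Of the 76 genes 64 had a promoter in the table. The ETS core stood in 11 of the 64 (17.2%), against 7.05% of all 27025 promoters of this length. The NRF1 site stood in 4 (6.25%, against 0.781%) and the E-box in 6 (9.38%, against 12.8%). These letter matches are a description and not evidence of binding.

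Cox6a2 had ratios of 4.40, 2.91 and 1.68 in tumors 302, 307 and 312 at day 10 and of 1.60, 3.20 and 1.37 in tumors 303, 313 and 318 at day 15. All 6 tumors were brighter than the reference, the days overlapped, and the value of tumor 312 lies in its lost area. The mean was 2.53 ± 1.18 (SD, n = 6, limma adjusted p = 9.3e-04), and 2.86 with that area left out. Its Cy3 signal was well above background on 1 of 6 arrays, so the ratio is set against a reference near background and its size is uncertain.

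Cox8b had ratios of 3.61, 1.53 and 3.39 at day 10 and of 1.88, 2.08 and 0.10 at day 15. Tumor 318 was near the reference and not well above background in Cy5, the other 5 tumors were. The limma test against the reference used Cy3 as measured (adjusted p = 0.0016). Because Cy3 was not well above background on any array, the ratio is a bound. In the mean of the log2 signals over all tumors, the tumor signal was at least 3.33-fold that of the reference. For this bound the reference was given, array by array, the lowest Cy3 signal of any probe well above background unless the probe's own signal was higher. It can still hold dye bias.

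Cox7a1 had ratios of 1.39, 1.57 and 0.98 at day 10 and of 0.29, 1.18 and -0.06 at day 15. It was well above background in both dyes on all arrays, with a mean of 0.89 ± 0.64 (SD, n = 6, limma adjusted p = 0.0026), under the 2-fold minimum. The mean was 0.21 under median centring. Tumors 303 and 318 were below all other tumors, and tumor 313 lay among the day 10 values.

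The general counterparts varied less. Cox8a had the ratios 0.18, 0.21 and 0.14 at day 10 and 0.20, 0.60 and 0.28 at day 15. Cox7a2 had -0.26, -0.34 and -0.05 at day 10 and -0.35, -0.50 and 0.01 at day 15. Cox6a1 had 0.18, -0.01 and -0.86 at day 10, the last in the lost area, and 0.04, 0.36 and 0.30 at day 15. The SD over tumors was 0.166, 0.196 and 0.447 for these genes, and 1.29, 0.645 and 1.18 for Cox8b, Cox7a1 and Cox6a2.

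**Figure D2:**
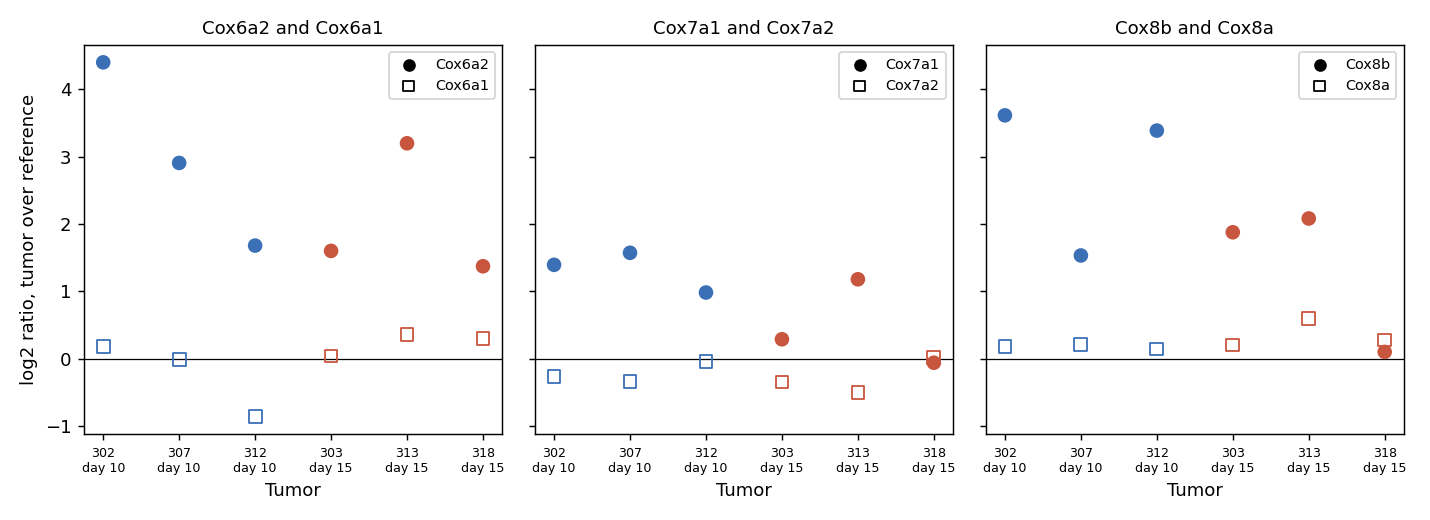
Log2 ratio of tumor over reference (vertical axis) in each of 6 tumors for the muscle or heart form (filled circles) and the general form (open squares) of 3 complex IV subunits; blue is day 10, red is day 15. The filled circles lie above the open squares in every tumor for Cox6a2, and in all but tumor 318 for Cox7a1 and Cox8b.

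The difference within an array between the forms, which still depends on the scaling, was compared between the days with an exact permutation test over the 6 tumors (2-sided, 20 splits, smallest possible p 0.1). Cox6a2 minus Cox6a1 was 3.23 ± 0.88 at day 10 and 1.82 ± 0.91 at day 15 (SD, n = 3, exact p = 0.2). Cox7a1 minus Cox7a2 was 1.53 ± 0.45 and 0.75 ± 0.88 (SD, n = 3, exact p = 0.3). Cox8b minus Cox8a was 2.67 ± 1.17 and 0.995 ± 1.02 (SD, n = 3, exact p = 0.3). Adjusted over the 3 pairs each p was 0.3. The mean of each difference was lower at day 15 (day 15 minus day 10 of -1.40, -0.78 and -1.67), but the tumors of the days overlapped in all 3. For Cox6a2 minus Cox6a1 the overlap came only from tumor 312 (2.54), where both spots lie in the lost area. Tumors 302 and 307 had 4.22 and 2.92, and the highest day 15 value was 2.84, in tumor 313. Under median centring in place of loess these values were -0.85, -0.69 and -1.14.

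Markers of other cell types are given beside these forms. Of the 20 skeletal muscle markers 19 were tested, all 19 had a lower value at day 15 and 7 passed the test (Acta1, Myh1, Myh4, Myh8, Tnnc2, Tcap and Mybpc2; 0.0569% of all 15805 genes tested between the days were called in either direction). The list's median ratio was 3.89, 2.46 and 3.52 in the day 10 tumors and -0.09, 0.02 and -0.13 in the day 15 tumors, so the days were far apart. Its summed Cy5 signal was 64756 to 435772 at day 10 and 7890 to 27944 at day 15. All 20 were well above background in some tumor. The days of Cox6a2, Cox7a1 and Cox8b overlapped, as did those of the muscle markers Atp2a1 and Eno3. For the other muscle markers every day 15 ratio lay below those of day 10. In tumor 313 the muscle median was 0.02 while Cox6a2, Cox8b and Cox7a1 stood at 3.20, 2.08 and 1.18. Single muscle markers lay far from that median. Myl1 was at 2.75, 3.29 and 0.23 in tumors 303, 313 and 318, and Tnni2 at 1.95, 2.63 and 1.82. In tumor 313, 7 of the 20 markers were well above background in Cy5.

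Of the 9 heart muscle markers, Myh6, Myl7, Myh7 and Ryr2 were well above background in Cy5 on no array, while Tnni3, Tnnt2 and Actc1 were on all 6. Tnni3 had ratios from 2.24 to 3.18, with the days overlapping, Tnnt2 from -1.95 to -0.11. Actc1 had 0.24 to 0.88 at day 10 and 1.13 to 1.71 at day 15 (difference 0.84, SE 0.24, limma adjusted p = 1). The list's summed Cy5 signal was 5318 to 7845 at day 10 and 4619 to 10531 at day 15. The 10 adipocyte and brown fat markers had the median ratios 2.53, 2.86 and 0.06 at day 10 and 5.22, 5.47 and 0.81 at day 15. Fabp4 has no value in tumor 318, where its spot carried an outlier mark. Over the other 9 markers the summed Cy5 signal was 14711, 36812 and 2904 at day 10 and 249108, 351233 and 2618 at day 15. Tumors 303 and 313 were high, and tumors 312 and 318 low. Of the markers known from brown fat, Ucp1 and Elovl3 were well above background on no array. Cidea was well above background in Cy5 on 2 arrays. Tumor 318, low in muscle and adipocyte markers, had the lowest Cox6a2, Cox7a1 and Cox8b ratios of the 6 tumors. Tumor 312, also low in adipocyte markers but high in muscle markers, had a Cox8b ratio of 3.39 and a Cox7a1 ratio of 0.98. Its Cox6a2 ratio, in the lost area, was 1.68. The spots of the adipocyte markers Adipoq and Lep lie in that area too, so its adipocyte values are uncertain. Tumors 303 and 313, low in muscle but high in adipocyte markers, had Cox8b ratios of 1.88 and 2.08. Their Cox6a2 ratios were 1.60 and 3.20, and their Cox7a1 ratios 0.29 and 1.18. The part of these cells in the result was not tested.

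**Figure D3:**
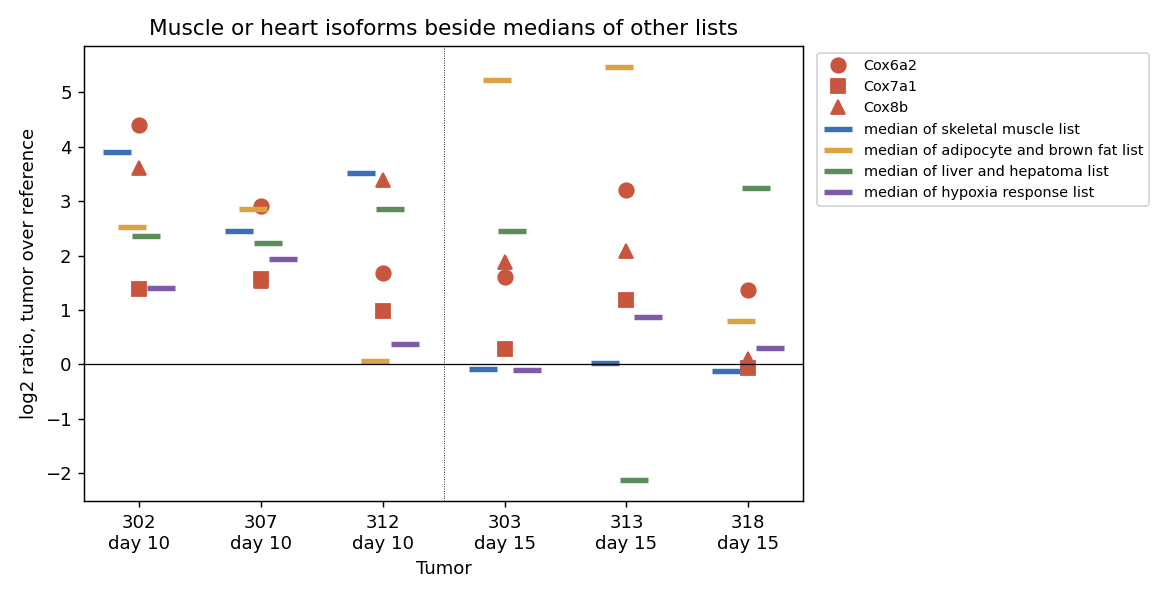
Log2 ratio of tumor over reference (vertical axis) of Cox6a2, Cox7a1 and Cox8b (red symbols) in each of 6 tumors, beside the median ratio of the skeletal muscle, adipocyte and brown fat, liver and hepatoma and hypoxia response lists (coloured dashes); the dotted line parts day 10 from day 15. The muscle median falls from 2.46 or more at day 10 to at most 0.02 at day 15, while the adipocyte median is highest in tumors 303 and 313.

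Between the days, no subunit gene changed by the test. Of 75 genes, 0 had a limma adjusted p under 0.05 (0.0569% of all genes tested did), and 1 had an unadjusted p under 0.05 (4.01% of all genes tested did). Cox7a1 was that gene, with a day 15 minus day 10 difference of -0.85 (SE 0.34, limma adjusted p = 1). In the tumor channel alone it was -0.95 (limma adjusted p = 0.84), and 0 subunit genes or other genes passed there (0.00%). The differences of Cox8b and Cox6a2 were -1.49 (SE 0.73) and -0.94 (SE 0.77), and -1.60 for Cox6a2 without the lost area. Without tumor 313, Cox7a1 differed by -1.20 (limma adjusted p = 0.62), Cox8b by -1.86 and Cox6a2 by -1.51.

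The other 72 genes had differences from -0.31 to 0.47. The value was higher at day 15 in 43 of the 75 and lower in 32, with a median of 0.04 against 0.02 over all genes. The size of the difference had a median of 0.0906, against 0.149 over all genes tested. Under median centring the medians were -0.36 and -0.30, and 74 of the 75 values were negative, as were 13534 of 15805 over all genes. In the tumor channel alone they were -0.06 and -0.10, so the sign of the median followed the scaling, as that of all genes did.

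**Figure D4:**
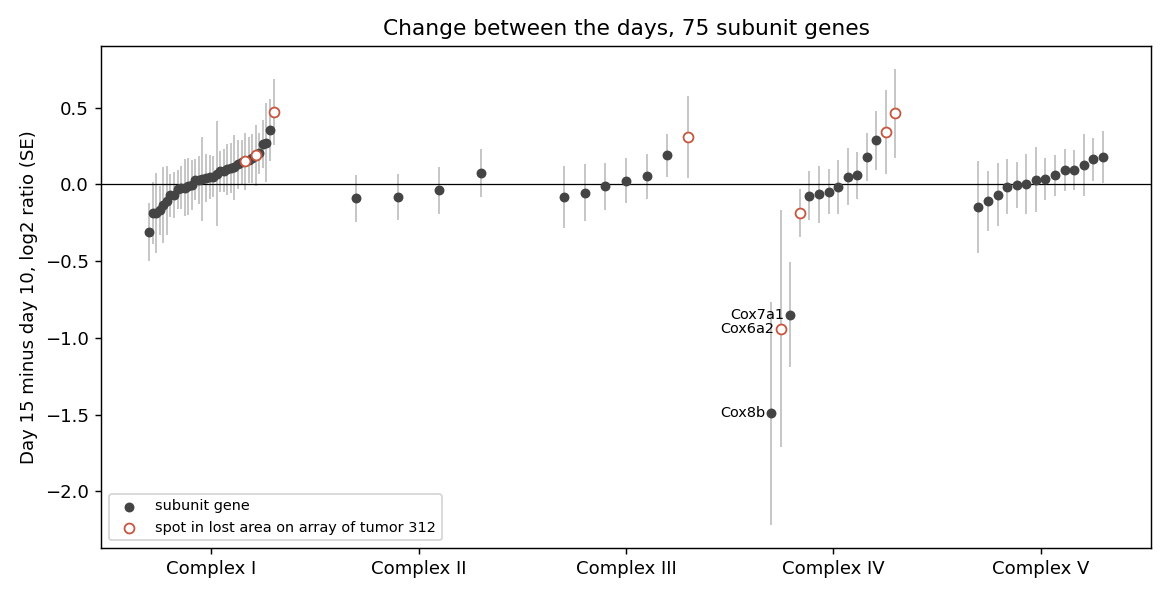
Day 15 minus day 10 difference of the log2 ratio (vertical axis), with SE, for 75 subunit genes by complex (horizontal axis); open circles mark genes whose spot lies in the lost area on the array of tumor 312. All genes but Cox8b, Cox6a2 and Cox7a1 lie between -0.31 and 0.47.

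In 4 genes the tumors of the days did not overlap, 3 higher and 1 lower at day 15, where 5.22% and 3.92% of all genes were, 9.14% in either direction. Ndufs5, an accessory subunit of complex I, had 0.00, -0.17 and -0.47 at day 10 and 0.06, 0.61 and 0.12 at day 15 (difference 0.47, SE 0.21). The value of -0.47 lies in the lost area, and without it the difference was 0.34. Uqcrc1 had 0.48, 0.32 and 0.44 at day 10 and 0.74, 0.53 and 0.53 at day 15 (difference 0.19, SE 0.14). Ndufa2 had 0.11, 0.04 and 0.09 at day 10 and 0.15, 0.38 and 0.32 at day 15 (difference 0.20, SE 0.13). Ndufa6, the only one lower at day 15, had 0.20, 0.42 and 0.23 at day 10 and 0.11, -0.36 and 0.18 at day 15 (difference -0.31, SE 0.19). None of these 4 passed the test.

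Apart from Cox8b, Cox6a2 and Cox7a1, given above, the widest differences within the other complexes were small. In complex II they were 0.07 for Sdhb and -0.09 for Sdhd, and in complex V 0.18 (SE 0.17) for Atp5e and -0.15 (SE 0.30) for Atp5a1. In complex III, Uqcrc2 differed by -0.08 and Uqcrq by 0.31 (SE 0.27). Uqcrq had -0.28, -0.34 and -1.16 at day 10 and -0.49, -0.14 and -0.23 at day 15. Its low value in tumor 312 lies in the lost area, and without it the difference was 0.02. In complex IV, the largest rises were those of Cox6a1 and Cox5a, which differed by 0.46 and 0.34, and by 0.15 and 0.05 without the lost area.

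The tumors differed in how often they held the extreme value. Over the 65 genes measured in all tumors outside the lost area, tumor 318 was the highest of the 6 for 41.5%, against 22.2% of 13701 genes. Tumor 307 was the lowest for 27.7%, against 10.1% of all genes, and tumor 303 for 26.2%, against 14.6%. Tumor 313 was at either extreme for 61.5%, close to the 65.2% among all genes. The median ratio of the 75 genes stayed between -0.17 and -0.01 in all 6 tumors.

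Other genes of the same organelle were described from lists. Of the subunits outside the name rule, 10 of 11 were tested and 0 were called between the days, with 6 higher and 4 lower values. Against the reference 1 was at least 2-fold lower (6 under median centring), Cycs, the soluble electron carrier cytochrome c (-1.22 ± 0.41, SD, n = 6). Of all 16325 genes, 9.76% were lower with loess, and 4594 genes were lower under median centring. Cox4i1, a core-bound subunit of complex IV, was at 0.29 ± 0.13, Cyc1, the cytochrome of complex III, at -0.68 ± 0.25, and Atp5o, of the ATP synthase stalk, at 0.36 ± 0.16 (SD, n = 6). These values lay in the range of the subunits above.

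Assembly factors, which build the complexes, counted 0 of 33 called between the days. Against the reference 2 of 34 were at least 2-fold higher, Cox17, a copper chaperone (1.30 ± 0.13), and Coa3 (1.05 ± 0.42), and 7 were lower, where 25.5% and 9.76% of all genes were. Under median centring it was 0 higher and 16 lower (3239 and 4594 of all 16325 genes). With processed signals it was 1 and 13 (4443 and 3235 of all genes). Among the lower were Ndufaf4 (-1.67 ± 0.12) and Atpaf1, an ATP synthase assembly factor (-1.42 ± 0.23, SD, n = 6). Of 12 regulators of mitochondrial biogenesis 0 were called between the days, and 1 was higher and 3 lower than the reference (0 and 9 under median centring). Ppargc1a and Ppargc1b, related coactivators of mitochondrial genes, lay on opposite sides of the reference, at -1.50 ± 0.17 and 1.37 ± 0.22. Tfam, which packages mitochondrial DNA, was at -1.01 ± 0.30 and Gabpb1, a subunit of GABP, at -1.37 ± 0.21 (SD, n = 6). Of 13 citrate cycle enzymes 0 were called between the days. Against the reference 0 were at least 2-fold different with loess (median ratio -0.48), 3 were lower with processed signals and 10 under median centring (median -1.44).

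Of the 13 subunits encoded in mitochondrial DNA, 3 were on the array. ND4L of complex I, CYTB of complex III and COX2 of complex IV had ratios from -1.33 to 0.27, with tumor 313 lowest and tumor 312 highest for each. Their differences between the days were -0.41 (SE 0.31), -0.31 (SE 0.33) and -0.35 (SE 0.29), and none passed the test. Of 11 hypoxia response genes, 10 had a lower value at day 15 and 0 passed, with a median difference of -0.56. Pdk1, which holds pyruvate back from the citrate cycle, differed by -0.76 (SE 0.16, limma adjusted p = 0.83), Pgk1, a glycolytic enzyme, by -0.91 (SE 0.32), and Egln3, an oxygen-sensing hydroxylase, by -1.28 (SE 0.48). The -0.56 is the value of Higd1a, whose spot in tumor 312 lies in the lost area. The list's median ratios overlapped between the days, with 1.41, 1.95 and 0.38 at day 10 and -0.11, 0.86 and 0.31 at day 15. Its median difference was negative under each scaling run. It was -0.95 with median centring (all genes -0.30) and -0.43 in the tumor channel alone (all genes -0.10).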

How the data were processed

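The deposited files are scanner output (Agilent Feature Extraction 9.1.3.1, per the submitters' processing notes). Per the file headers, they hold mean pixel intensity and median local background intensity per spot and dye, not normalized. A table deposited by the authors gives log10 ratios, with a difference of 0 from the scanner's own log ratio at every spot, which the software had background-corrected and dye-normalized. From the intensities, log2 ratios of Cy5 over Cy3 were computed in limma 3.58.1 under R 4.3.3, with normexp background correction (offset 50) and loess within each array, control and outlier spots (70 to 157 per array) at weight 0 and left out afterwards. Each array held 45018 spots, 1639 of them controls. A gene was read by its probe of highest mean log intensity. Of 41174 probes, 23374 were named through RefSeq (GRCm38.p6) by accession, 6733 by symbol and 2919 by a former symbol; the other 8148 have the array's name.

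The days were compared with lmFit and eBayes on 23069 probes (for 15805 genes) that passed the background mark in Cy5 on at least 3 arrays, and the tumors with the reference on probes above it in either dye on at least 3 arrays (16325 genes), 2-sided, adjusted by Benjamini-Hochberg, at a threshold of 0.05. The test against the reference leaves out the spread of reference samples. The number of arrays limits the precision. Which mouse gave which tumor is not in the labels, and p-values therefore measure only the spread between these samples. The lost area was read from Cy3 signal that fell by at least 1 (log2) below the other arrays.

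The subunit genes, gene lists and alternatives were chosen with earlier results of these data known. Values per tumor are given for the isoform pairs, the largest rise and fall and the highest and lowest ratio of each complex, core subunits, paralogs and, per list, up to 3 genes of smallest p. Genes outside this rule (Ndufa12l, Ndufa4, Ndufs8, Ndufa1, Ndufa2, Ndufb2, Ndufa3, Hbb-bt, Hba-a1, Alas2, Slc4a1, Acta1, Myh1, Tcap, Mybpc2, Atp2a1, Eno3, Myl1, Tnni2, Myh6, Myl7, Myh7, Ryr2, Tnni3, Tnnt2, Actc1, Fabp4, Adipoq, Lep, Ucp1, Elovl3, Cidea, Cox4i1, Cyc1, Cycs, Atp5o, Higd1a, Cox17, Coa3, Ndufaf4, Atpaf1, Ppargc1a, Tfam, Gabpb1) were named after their values were seen. Fits were tested on simulated data. Alternatives were other scalings, background corrections, filters, probe rules, single dyes and leaving out the lost area or each tumor.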

Additional observations from a re-analysis of the deposited data

Results flagged for a closer look

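Of 43 values examined for 1 tumor far from the other 5, 5 stood out, where chance gives about 1 in 20. Tumor 312 was far below the others for Cox6a1 (-0.86, others -0.01 to 0.36), Uqcrq (-1.16, others -0.49 to -0.14) and Cox5a (-0.67, others 0.08 to 0.45). All 3 probes lie in the area of lost signal on that array. Tumor 313 was far above the others for Cox8a (0.60, others 0.14 to 0.28) and Atp5l (1.05, others 0.75 to 0.84), whose probes lie outside that area.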

How the results depend on the processing

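No subunit gene was called between the days under any of the 16 alternatives, and the 3 isoform differences kept their negative sign in all of them. Median centring without loess moved the median difference between the days of the subunit genes to -0.36. It moved the subunit genes lower than the reference to 38 of 75, where 4594 of all 16325 genes were lower. It turned the day differences of Cox6a1 (-0.22), Cox8a (-0.24), Atp5e (-0.22), Ndufs5 (-0.0098), Sdhb (-0.29) and Uqcrq (-0.40) negative, beside a median of -0.30 over all genes. It also turned the ratios to the reference of Cox6a1 (-0.85), Cox8a (-0.71), Atp5e (-0.19), Ndufs5 (-0.92), Ndufa6 (-0.83), Atp5l (-0.14), Ndufb10 (-0.15), Sdhc (-0.49), Uqcrh (-0.15), Ndufv1 (-0.78), Uqcrc1 (-0.47), Cox5a (-0.75), Atp5b (-0.64), Atp5c1 (-0.75) and Atp5g2 (-0.82) negative. With the scanner's processed signals, and equally with the value table of the authors, the day difference of Cox7a2 became 0.0059, and the ratios of Cox6a1 (-0.40), Ndufs5 (-0.11), Ndufa6 (-0.019), Cox5a (-0.20) and Atp5c1 (-0.048) turned negative. In Cy5 alone the median difference was -0.061, and Atp5e (-0.049), Sdhb (-0.24) and Sdhd (0.084) changed sign. In Cy3 alone, which holds only the reference, the values were -0.066, -0.29, -0.27 and 0.22. Averaging all probes of a gene turned the ratios of Atp5a1 (0.17), Sdha (0.19) and Atp5b (-0.12). Asking for signal on all 6 arrays left 1 gene higher than the reference, because Cox8b was then not tested. The causes of the other shifts were not tested.

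Leaving out each tumor in turn gave 2 to 5 genes lower than the reference (2 without tumor 313, 3 without tumor 307). The ratios ranged from -0.10 to 0.16 for Cox6a1, -0.063 to 0.088 for Ndufs5, -0.016 to 0.23 for Cox5a and -0.18 to 0.062 for Atp5a1. The day differences ranged from -0.21 to 0.049 for Cox7a2, -0.19 to 0.0014 for Sdhd, -0.34 to 0.15 for Atp5a1, -0.24 to 0.086 for Uqcrc2 and -0.0068 to 0.17 for Sdhb. With 5 tumors the lone spread of a day of 2 tumors is pooled across genes and days by limma. In single dyes the lost area of tumor 312 stays in the values of its 8 genes. No paired analysis was possible because the days share no tumor number. Signals near background, as for Cox6a2 and Cox8b in Cy3, limit how far their ratios can be read.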
